A study of Mus musculus with 8 samples.

Results

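TREM2 is a lipid-sensing receptor of macrophages, and a set of 10 genes around it was followed in kidneys of mice with constitutively active Nrf2. The set held the receptor Trem2, its signalling partner Tyrobp and 8 genes known from lipid-associated macrophages, namely Gpnmb, Spp1, Lgals3, Cd68, Lyz2, Apoe, Fabp5 and Cd9. These genes were chosen by name with earlier results of the same NEKO and control kidneys in view, so their difference between genotypes is given as a description and without a test. Of the 10 genes, 8 had a probe that could be named and 7 passed the filter on dim probes, out of 19593 genes and unnamed transcripts tested in all. Cd68 and Fabp5 were not analysed here, and both Gpnmb probes stayed dim on all 8 arrays.

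Total RNA from the whole kidney of 8-week-old mice on a mixed 129Sv/J and C57BL/6J background was hybridised to one-colour arrays, 1 array per mouse. The 4 NEKO mice, 2 females and 2 males, were Keap1-/-::Nrf2Flox/Flox::K5-Cre, which means that they lacked Keap1 in the whole body and deleted Nrf2 only where the Keratin5 promoter drives Cre, as in the squamous epithelium of the oesophagus. The 4 control mice, 2 females and 2 males, carried 1 intact Keap1 allele and the same floxed Nrf2 alleles. Of these, 1 female was K1 (Keap1+/-::Nrf2Flox/Flox, without Cre) and the other 3 were K1Cre (Keap1+/-::Nrf2Flox/Flox::K5-Cre), so neither group was wild type. The comparison asked how loss of Keap1 changed kidney transcripts in mice that develop polyuria and hydronephrosis.

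Keap1 was lower in all 4 NEKO kidneys than in any control kidney, with a log2 change of -1.63 (SE 0.1, adjusted p = 0.00458 by limma), and 5 sex-linked genes separated females from males as labelled. The share of probes well above background ran from 61.8% to 65.7%, and no probe was saturated. All females were hybridised on 1 slide and all males on another, which means that slide and sex cannot be told apart. On each slide the controls lay at positions 1 and 2 and the NEKO samples at positions 3 and 4, so array position and genotype cannot be told apart either.

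TREM2 binds lipids and lipoproteins at the surface of macrophages and has no signalling tail of its own. It acts through TYROBP (also called DAP12), an adaptor whose phosphorylated motif recruits the kinase SYK. Macrophages that take up lipids or dead cells in fat, atherosclerotic vessels, brain and injured kidney are known to switch on TREM2 together with genes for lysosomal and lipid-carrying proteins. Several of those genes are not exclusive to macrophages: in the kidney Spp1, Apoe, Lgals3 and Cd9 are also made by other cells, including tubular epithelium.

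Trem2 and Lyz2 were the members with the widest range between kidneys, and the 250 bases before the start of each gene are shown so that this shared pattern can be set beside their promoters. Capitals mark a match to GAGGAA, the core of sites for the myeloid factor PU.1, here on the opposite strand and beginning 40 bases before the start of Trem2. The sequences are from RefSeq on GRCm38.p6, each written 5′ to 3′ on the strand of its gene.
Trem2 (chr17:48346151-48346400, plus strand): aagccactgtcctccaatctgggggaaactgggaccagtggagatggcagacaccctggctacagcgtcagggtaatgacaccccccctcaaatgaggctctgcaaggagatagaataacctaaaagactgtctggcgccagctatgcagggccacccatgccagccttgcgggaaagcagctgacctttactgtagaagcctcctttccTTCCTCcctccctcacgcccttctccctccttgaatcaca
Lyz2 (chr10:117282273-117282522, minus strand): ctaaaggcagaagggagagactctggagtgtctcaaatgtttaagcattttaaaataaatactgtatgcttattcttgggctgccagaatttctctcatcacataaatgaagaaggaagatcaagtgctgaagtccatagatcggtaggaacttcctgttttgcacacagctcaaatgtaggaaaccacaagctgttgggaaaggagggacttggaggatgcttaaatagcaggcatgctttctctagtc
The letters GAGGAA were found on either strand in 23.3% of 32851 mouse promoter windows of this length. Among the members with an entry, Cd68, Spp1 and Apoe also had a window with a match, whereas Gpnmb, Lyz2, Lgals3 and Cd9 had none. The antioxidant response element core TGACNNNGC, bound by Nrf2 with a small MAF partner, was found on either strand in 10.2% of them and in no window of the 8 members with an entry, which excluded Tyrobp and Fabp5. The E-box CACGTG, bound by the lysosomal regulators MITF and TFEB, was found in 6.02% of them and likewise in no window of those 8 members. These matches describe letters in a short window and say nothing about binding elsewhere in the gene.

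Levels are given as log2 of the processed signal of a probe relative to the 75th percentile of the probes on the same array, so 0 is that percentile and 1 unit is a doubling, and levels of different genes are not comparable. In a whole-kidney extract, more cells of a type and more RNA per cell cannot be told apart.

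Trem2, the receptor, was higher in every NEKO kidney than in any control kidney, and it was highest in the 2 NEKO males. In the control kidneys its brighter probe read -3.41 and -3.17 in the females and -4.39 and -3.39 in the males. In the NEKO kidneys it read -2.48 and -1.74 in the females and 0.32 and 0.63 in the males. All 8 arrays measured this probe well above background, the groups did not overlap, and the NEKO males lay more than 2 log2 units above the NEKO females. The mean rose from -3.59 ± 0.54 (SD, n = 4) in controls to -0.82 ± 1.53 (SD, n = 4) in NEKO kidneys, a difference of 2.77 (SE 0.65) or 6.83-fold. Within females the difference was 1.18, or 2.26-fold, and within males it was 4.37, or 20.7-fold.

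A dimmer Trem2 probe gave the same order of kidneys. It read -5.03 and -4.8 in the control females, -5.61 and -4.87 in the control males, -4.3 and -3.41 in the NEKO females and -1.58 and -1.22 in the NEKO males. On this probe too the groups did not overlap and the NEKO males were highest, with a difference of 1.06 in females and 3.84 in males. It was well above background on only 2 of the 4 control arrays, so the control side of those differences is less certain than that of the brighter probe.

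**Figure D1:**
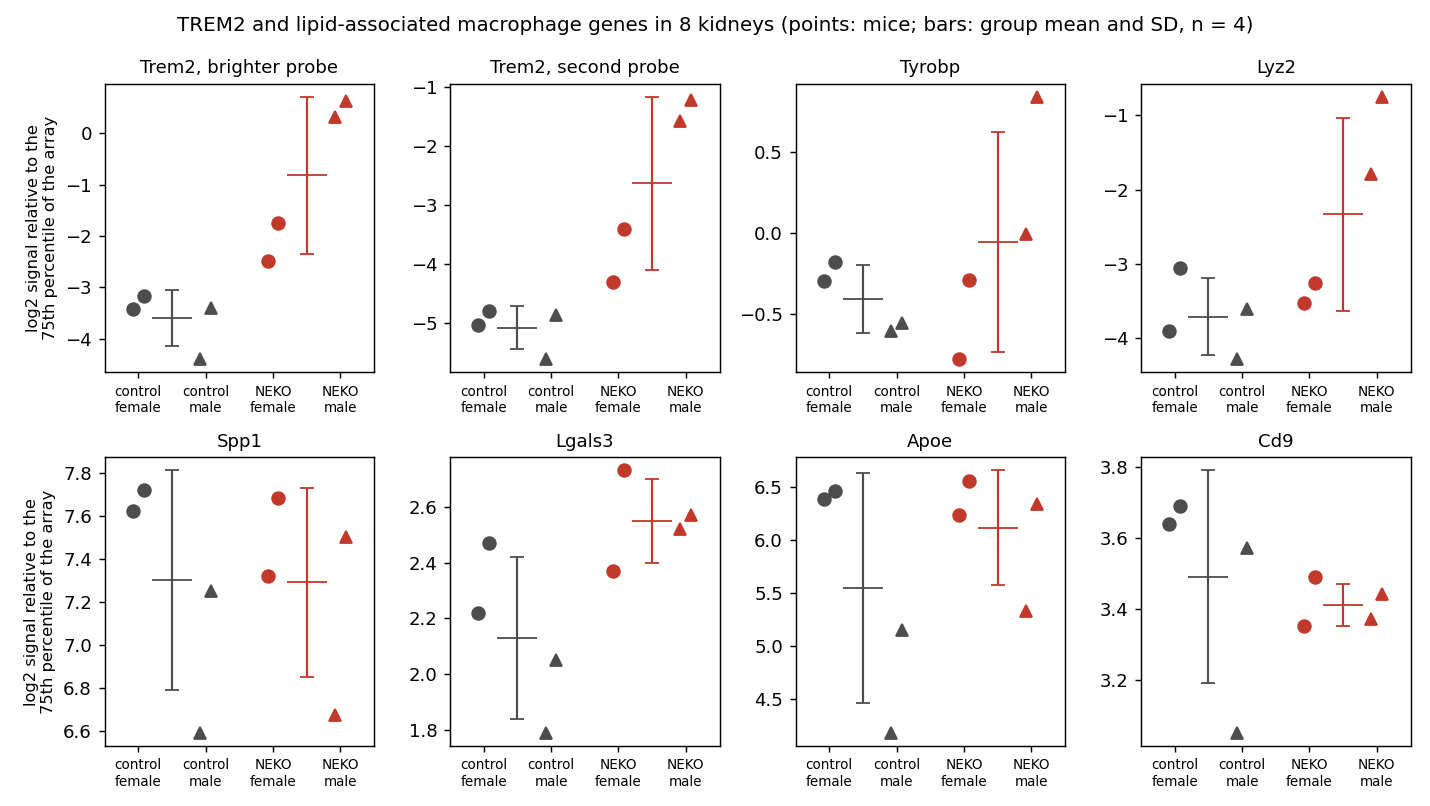
Level of each measured gene in every kidney (y axis, log2 signal less the array's 75th percentile; scales differ between panels), with circles for females, triangles for males, and bars for the group mean and SD of 4 mice. For Trem2, Tyrobp and Lyz2 the highest kidneys were NEKO males, whereas for Spp1, Apoe and Cd9 the groups overlapped and a control male was lowest.

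Tyrobp, the adaptor through which TREM2 signals, overlapped between the groups. It read -0.3 and -0.18 in the control females, -0.56 and -0.61 in the control males, -0.78 and -0.29 in the NEKO females and -0.01 and 0.84 in the NEKO males. The NEKO males were the 2 highest kidneys and a NEKO female was the lowest. The means were -0.41 ± 0.21 (SD, n = 4) in controls and -0.06 ± 0.68 (SD, n = 4) in NEKO kidneys, which differed by 0.35 (SE 0.31), with -0.29 in females and 1 in males.

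Lyz2 encodes lysozyme M, a bacteria-degrading enzyme of macrophages and neutrophils. Its level was -3.91 and -3.05 in the control females and -3.61 and -4.28 in the control males. In NEKO kidneys it was -3.53 and -3.26 in the females, inside the range of the controls, and -1.79 and -0.75 in the males, above all other kidneys. The means were -3.71 ± 0.52 (SD, n = 4) and -2.33 ± 1.3 (SD, n = 4), a difference of 1.38 (SE 0.57) or 2.6-fold, made up of 0.08 in females and 2.67, or 6.38-fold, in males. Lyz1 is a close paralogue of Lyz2, and whether the probe tells their transcripts apart was not tested.

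Gpnmb, a membrane glycoprotein of lipid-laden macrophages, was dim throughout: neither of its probes was well above background in any kidney. Its probes read between -8 and -5.43, and the lowest level at which a probe counted as well above background ranged from -5.68 to -5.18 between arrays. The value of -5.43 came from the NEKO male that also had the highest Trem2, Tyrobp and Lyz2, and it was on only 1 of the probes. No difference is given for Gpnmb.

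Apoe encodes apolipoprotein E, a ligand of TREM2 and a carrier of lipids. It was 6.39 and 6.47 in the control females but 4.18 and 5.15 in the control males. In the NEKO kidneys it was 6.24 and 6.56 in the females and 5.33 and 6.34 in the males. The low kidneys were thus the 2 control males and 1 NEKO male, and the groups overlapped. The means were 5.55 ± 1.09 (SD, n = 4) and 6.12 ± 0.54 (SD, n = 4), a difference of 0.57 (SE 0.36), with -0.03 in females and 1.17 in males. Without control replicate 4, the male with the lowest Apoe, the difference was 0.26.

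Lgals3 encodes galectin-3, a sugar-binding protein of activated macrophages that binds TREM2. It was 2.47 and 2.22 in the control females, 1.79 and 2.05 in the control males, 2.37 and 2.73 in the NEKO females and 2.52 and 2.57 in the NEKO males. A NEKO female lay below the highest control female, so the groups overlapped, although the other 3 NEKO kidneys were above all controls. The means were 2.13 ± 0.29 (SD, n = 4) and 2.55 ± 0.15 (SD, n = 4), a difference of 0.42 (SE 0.14) or 1.34-fold.

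Spp1, which encodes the secreted matrix protein osteopontin, had the same mean in both groups. It was 7.72 and 7.62 in the control females, 6.59 and 7.25 in the control males, 7.32 and 7.68 in the NEKO females and 6.67 and 7.5 in the NEKO males. The 2 lowest kidneys were a control male and a NEKO male. The means were 7.3 ± 0.51 (SD, n = 4) and 7.29 ± 0.44 (SD, n = 4), a difference of 0 (SE 0.23).

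Cd9, a tetraspanin of the cell membrane, also overlapped. It was 3.69 and 3.64 in the control females, 3.05 and 3.57 in the control males, 3.35 and 3.49 in the NEKO females and 3.44 and 3.37 in the NEKO males. The NEKO kidneys were close together and lay inside the range of the controls. The means were 3.49 ± 0.3 (SD, n = 4) and 3.41 ± 0.06 (SD, n = 4), a difference of -0.07 (SE 0.14).

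Of the 7 measured members, Trem2 alone had groups that did not overlap, where 3.88% of all genes and transcripts tested were higher without overlap. This count describes the contrast for which the members were chosen. Control replicate 4, a K1Cre male, had the lowest Trem2, Spp1, Lgals3, Apoe and Cd9 of all 8 kidneys. Without it the differences were 2.25 for Trem2, 0.23 for Tyrobp, 1.25 for Lyz2, -0.17 for Spp1, 0.32 for Lgals3 and -0.21 for Cd9.

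The choice of members did not use the difference between males and females within a genotype, so that difference was tested. Trem2 was 2.59 (SE 0.38) log2 units, or 6.03-fold, higher in NEKO males than in NEKO females, with an adjusted p of 0.038 by limma over all genes and transcripts, and both males were above both females. Over all genes and transcripts 0.725% were called higher in NEKO males. Among control kidneys Trem2 was -0.6 in males relative to females (SE 0.38, adjusted p = 0.503 by limma). The call in NEKO mice held in 10 of 18 settings, with adjusted p between 0.00749 and 0.127 and a difference between 2.22 and 2.96. It was lost without NEKO replicate 2, 3, 5 or 6 (adjusted p = 0.0892, 0.0918, 0.107 and 0.127) and without control replicate 1 or 8 (adjusted p = 0.0728 and 0.0721), all by limma.

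Lyz2 and Tyrobp were also higher in NEKO males than in NEKO females, but neither passed the adjusted threshold. The difference was 2.12 (SE 0.44) or 4.36-fold for Lyz2, with an adjusted p of 0.0815 by limma, and 0.95 (SE 0.3) for Tyrobp, with an adjusted p of 0.174. The other members showed no such difference past the threshold: Spp1 was -0.42 (adjusted p = 0.541), Apoe -0.57 (adjusted p = 0.505), Cd9 -0.02 (adjusted p = 0.969) and Lgals3 0 (SE 0.17, adjusted p = 0.994) in males relative to females. Among control kidneys none of the 7 was called, where 0.051% of all genes and transcripts were. Apoe had the largest value there, -1.76 (SE 0.42) or 3.4-fold lower in males, with an unadjusted p of 0.0052 and an adjusted p of 0.181 by limma.

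**Figure D2:**
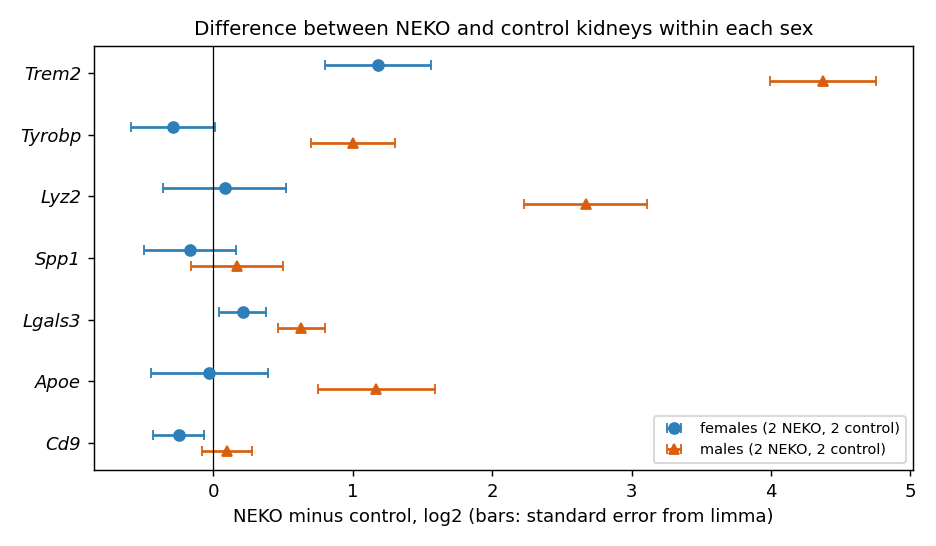
Difference between NEKO and control kidneys (x axis, log2) within females (blue circles) and within males (orange triangles) for each measured gene, with bars for the standard error from limma over 2 kidneys of each genotype. Trem2 stood at 1.18 in females and 4.37 in males, Lyz2 at 0.08 and 2.67, and Tyrobp at -0.29 and 1, and the male value was the higher for all 7 genes. For Spp1, Apoe, Lgals3 and Cd9 this came with lower control males, while the mean of the NEKO males was not above that of the NEKO females.

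The signed NEKO minus control difference was higher in males than in females for all 7 measured members, although it was -0.25 in females and 0.1 in males for Cd9 and -0.17 and 0.17 for Spp1. By fitted values it was higher in males for 50.3% of all genes and transcripts tested. For Spp1, Apoe, Lgals3 and Cd9 the NEKO males were not above the NEKO females (-0.42, -0.57, 0 and -0.02). The control males of these genes lay below the control females, by -0.75, -1.76, -0.42 and -0.36. Without control replicate 4 the excess of the male over the female difference was 0.01, 0.71, 0.29 and 0.08 for them. For Trem2 the male effect was larger than the female one by 3.19 (SE 0.54), with an unadjusted p of 0.000928 and an adjusted p of 0.13 by limma. For Lyz2 the excess was 2.59 (SE 0.63, adjusted p = 0.2) and for Tyrobp it was 1.29 (SE 0.42, adjusted p = 0.33). These 3 had an unadjusted p under 0.05 for the interaction, where 6.87% of all genes and transcripts were higher at that level, and none passed the adjusted threshold, which 0.0153% of all did. A difference in genotype effect between the sexes was therefore not established for any member, and it rests on 2 kidneys of each sex and genotype. The slide that separates the sexes moves with this pattern as well, and its part was not tested.

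Within genotypes the members fell into 2 sets that varied together. Likeness was measured as the Pearson correlation of the levels over the 8 kidneys after the mean of each genotype group was subtracted, as a description, since the kidneys share slides and the NEKO males stand apart. Trem2, Tyrobp and Lyz2 formed one set, with r = 0.86 for Trem2 and Tyrobp, 0.85 for Trem2 and Lyz2 and 0.92 for Tyrobp and Lyz2. Spp1, Apoe, Lgals3 and Cd9 formed the other, with r between 0.73 and 0.95. Between the sets r lay between -0.11 and 0.34. The second set rested in part on control replicate 4: without it, r for Spp1 and Cd9 went from 0.73 to 0.29 and for Apoe and Cd9 from 0.79 to 0.4, whereas the first set gave 0.87, 0.92 and 0.94.

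**Figure D3:**
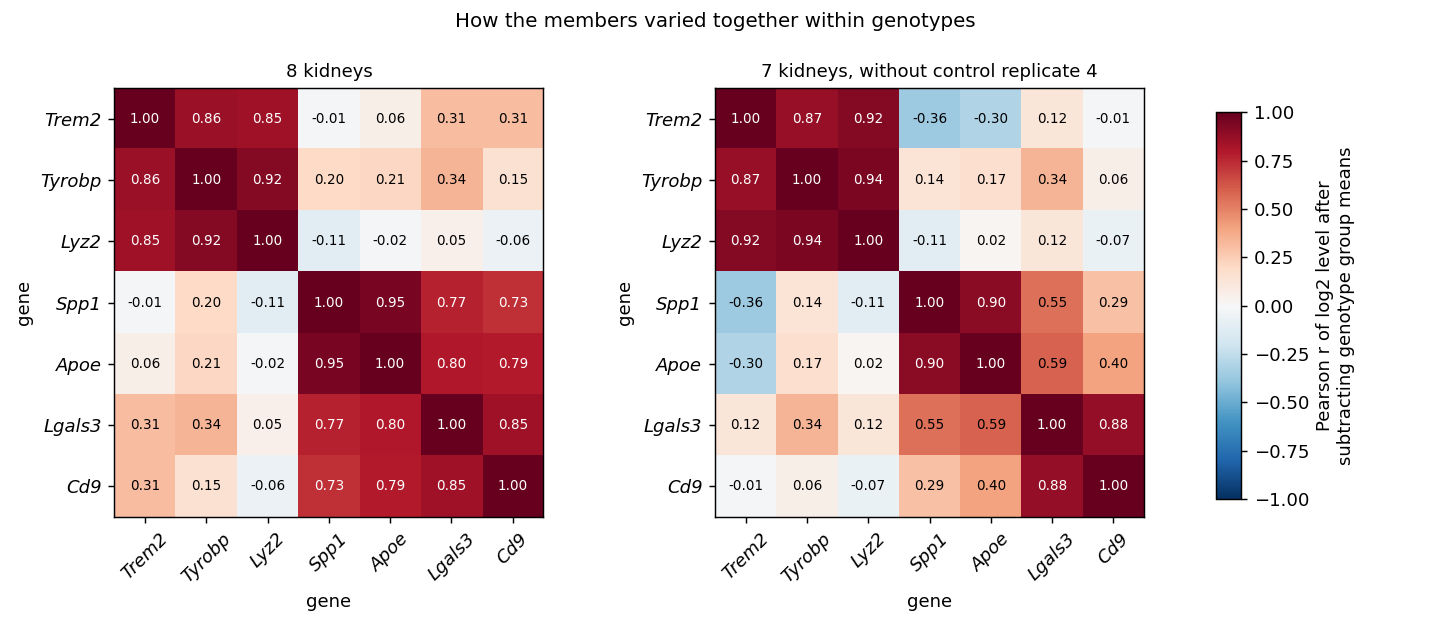
Pearson r between each pair of measured genes (rows and columns) after subtracting genotype group means, over 8 kidneys on the left and over 7 kidneys without control replicate 4 on the right, with red for positive and blue for negative values. The block of Trem2, Tyrobp and Lyz2 stayed at 0.85 or above in both panels, while the block of Spp1, Apoe, Lgals3 and Cd9 became paler without that kidney.

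Among the 13518 named genes other than Trem2 with a value on all 8 arrays, Tyrobp ranked 363 and Lyz2 393 in likeness to Trem2, whereas Cd9 ranked 4119, Lgals3 4170, Apoe 6562 and Spp1 7173. The 5 genes most like Trem2 by this measure were Crlf2 (r = 0.993), Ltc4s (r = 0.991), Ppp2r2c (r = 0.986), Srxn1 (r = 0.986) and Ccl5 (r = 0.985). Ltc4s encodes leukotriene C4 synthase, Srxn1 the antioxidant enzyme sulfiredoxin, Ccl5 a chemokine for T cells and monocytes, and Crlf2 a subunit of the receptor for the cytokine TSLP. Srxn1, an established Nrf2 target, differed by 1.47 (SE 0.28, adjusted p = 0.0813 by limma) between the genotypes, whereas Ccl5 differed by 0.09 (SE 0.47, adjusted p = 0.932). Ccl5 was 1.99 higher in NEKO males than in NEKO females (adjusted p = 0.038 by limma). Ppp2r2c, a subunit of protein phosphatase 2A, was well above background in none of the control kidneys, so no fold is given for it.

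Other genes of the pathway were taken from lists drawn up with earlier results of these data known, and none of them was called for NEKO against control by limma, where 0.225% of all genes and transcripts were. In the list of TREM2-TYROBP signalling, 13 of 20 genes were tested, and 1 was higher and 1 lower at an unadjusted p under 0.05, levels that 7.37% and 10.6% of all genes and transcripts reached in those directions. Its median difference was 0.13, beside -0.03 over all genes and transcripts tested. Ms4a7, a macrophage membrane protein, differed most, at 1.33 (SE 0.52, adjusted p = 0.25 by limma), with 0.11 in females and 2.55 in males. Syk, the kinase that TYROBP recruits, differed by 0.45 (SE 0.3, adjusted p = 0.453), with -0.26 in females and 1.16 in males. Lat2, an adaptor downstream of such receptors, differed by 0.5 (SE 0.26, adjusted p = 0.353), and Hcst, which encodes the related adaptor DAP10, by -0.4 (SE 0.26, adjusted p = 0.435). Thus the signalling list held values on both sides of 0, with the male values of Ms4a7 and Syk above the female ones. Trem3, Siglech and Cd300lb were well above background in no kidney, and Adam10 and Ms4a4a were not analysed here.

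In the lipid-handling list 17 of 18 genes were tested, 3 were higher and none lower at an unadjusted p under 0.05 (7.37% and 10.6% of all genes and transcripts), and the median was 0.19 beside -0.03 over all. Abcg1, which exports cholesterol from macrophages, did not overlap between the groups and differed by 0.53 (SE 0.16, adjusted p = 0.177 by limma). Lrp1, a receptor for APOE-carrying lipoproteins, differed by 0.59 (SE 0.24, adjusted p = 0.268), with 0.01 in females and 1.16 in males. Neither scavenger receptor passed the test: the value was 1.12 (SE 0.52, adjusted p = 0.306) for Msr1, which was well above background on 1 of 4 control arrays, and -0.53 (SE 0.58, adjusted p = 0.639) for Cd36.

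In the list of lipid-associated and disease-associated macrophage genes 21 of 25 were tested, 5 were higher and 2 lower at an unadjusted p under 0.05 (7.37% and 10.6% of all genes and transcripts), and the median was 0.1 beside -0.03 over all. Pla2g7, which encodes the lipoprotein-associated phospholipase A2 of macrophages, differed most, with 1.86 (SE 0.33) or 3.62-fold and an adjusted p of 0.0752 by limma. Its groups did not overlap, and the difference was 1.1 in females and 2.61 in males, so it was above 0 in both sexes as Trem2 was. Atp6v0d2, a proton-pump subunit found in macrophages, osteoclasts and intercalated cells of the kidney, differed by -0.9 (SE 0.15, adjusted p = 0.0659). Capg, an actin-capping protein, differed by 0.54 (SE 0.19, adjusted p = 0.218), and the lysosomal glycoprotein gene Creg1 by 0.76 (SE 0.31, adjusted p = 0.265). Creg1 was the gene of these lists that was called higher in NEKO males than in NEKO females (1.12, adjusted p = 0.0414 by limma). When a model with separate genotype effects for females and males was fitted and their mean tested, a setting added after the data were seen, Pla2g7, Abcg1, Creg1, Ctsd and Atp6v0d2 were called, with adjusted p of 0.00939, 0.0375, 0.0365, 0.0297 and 0.0297 by limma. That setting called 247 genes and transcripts higher and 268 lower out of the 19593 tested, many more than the main fit did.

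**Figure D4:**
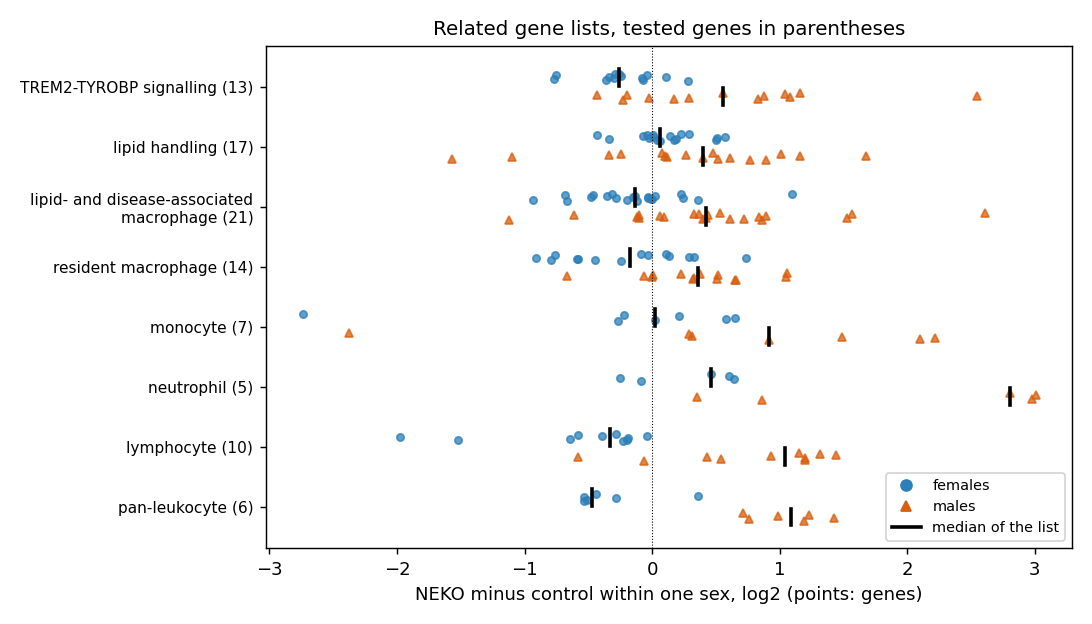
Difference between NEKO and control kidneys (x axis, log2) for the tested genes of each list, 1 point per gene, in females (blue circles) and males (orange triangles), with a black bar for the median. The median in males was above that in females for the 8 lists drawn, for example 0.56 and -0.26 for TREM2-TYROBP signalling and 1.09 and -0.47 for pan-leukocyte genes. Both genotypes entered into this: for TREM2-TYROBP signalling the median male minus female value was 0.46 in NEKO and -0.35 in control kidneys. For pan-leukocyte genes it was 0.89 and -0.47. Among the lists not drawn, the median NEKO minus control difference was lower in males than in females for nephron genes (-0.44 and -0.08).

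Pan-leukocyte, neutrophil and lymphocyte markers had their highest sums in the NEKO males. A sum adds the signals of all tested genes of a list relative to the 75th percentile, so the brightest probe weighs most, and each sum is also given without that gene, a choice made after the sums were seen. All 14 resident macrophage markers were tested. None had an unadjusted p under 0.05 between the genotypes by limma (7.37% of all genes and transcripts were higher and 10.6% lower). Their median difference was 0.08, with -0.17 in females and 0.36 in males. Their sum ranged from 64.9 to 80.5 in controls and from 71.6 to 84.4 in NEKO kidneys, but Cd81, a tetraspanin of many cell types, made up 64.2% to 79.9% of it. Without Cd81 the range was 18 to 23.3 in controls, 15.5 to 17 in NEKO females and 16.3 to 25.4 in NEKO males. The genes of that list with the largest differences were Cd163 at 0.9 (SE 0.42, adjusted p = 0.311 by limma), Mrc1 at 0.48 (adjusted p = 0.389), Cd74 at -0.46 (adjusted p = 0.345) and Fcgr1 at -0.37 (adjusted p = 0.496). Csf1r differed by 0.29 in females and -0.67 in males, opposite in sign to the medians of the list.

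All 6 pan-leukocyte genes were tested, with a median difference of 0.28. Their sum ranged from 2.63 to 3.72 in controls, from 2.78 to 3.34 in NEKO females and from 4.53 to 5.78 in NEKO males. Without Coro1a it was 1.62 to 2.3, 1.96 to 2.22 and 3.02 to 3.95. The markers with the brightest probes were Coro1a, which differed by 0.12 (adjusted p = 0.823 by limma), and Lcp1, which differed by 0.79 (adjusted p = 0.119).

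For neutrophil markers 5 of 13 genes were tested, with a median difference of 1.64, with 0.46 in females and 2.81 in males. At an unadjusted p under 0.05 by limma, 3 were higher and none lower (7.37% and 10.6% of all genes and transcripts). The sum ranged from 0.29 to 0.626 in controls, from 0.443 to 0.642 in NEKO females and from 1.93 to 6.83 in NEKO males, and without S100a9 it was 0.134 to 0.183, 0.168 to 0.168 and 0.539 to 0.825. The calcium-binding proteins S100a9 and S100a8 differed by 1.64 (SE 0.68, adjusted p = 0.272 by limma) and 1.81 (SE 0.68, adjusted p = 0.237), and the matrix protease Mmp9 by 1.81 (SE 0.66, adjusted p = 0.227). S100a8 and Mmp9 were each well above background on 1 of 4 control arrays, and on 3 and 4 NEKO arrays. Both needed the NEKO arrays to pass the filter on dim probes, so the median and the count lean towards genes higher in NEKO kidneys. Mpo, the myeloperoxidase of neutrophil granules, differed by 0.05 (adjusted p = 0.911). Elane was well above background in no kidney.

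For lymphocyte markers 10 of 14 genes were tested, with a median difference of 0.19. The sum ranged from 0.737 to 1.09 in controls, from 0.634 to 0.661 in NEKO females and from 1.28 to 1.35 in NEKO males, and without Cd79b it was 0.609 to 0.889, 0.434 to 0.518 and 1.06 to 1.19. The lowest control sums were those of control replicate 4, where Cd3e had no value and was left out, so they are too low. The markers with the brightest probes, the B cell receptor subunit Cd79b and the T cell kinase Lck, differed by 0.12 (adjusted p = 0.764 by limma) and 0.37 (adjusted p = 0.628). The T cell receptor chains Cd3d (2.31, adjusted p = 0.02) and Cd3g (1.43, adjusted p = 0.0252) and the cytotoxic granule protease Gzmb (1.54, adjusted p = 0.0497) were called higher in NEKO males than in NEKO females by limma, where 0.725% of all genes and transcripts were. Against controls, Cd3d differed by -1.52 in females and 1.2 in males, Cd3g by -0.64 and 1.2, and Gzmb by -0.04 and 1.44. Cd8a, the co-receptor of cytotoxic T cells, was lower in every NEKO kidney than in any control. The difference was -1.28 (SE 0.41, adjusted p = 0.194 by limma), with -1.98 in females and -0.58 in males. It read -4.96 and -3.49 in the NEKO females and -3.24 and -2.74 in the NEKO males, against -2.57 to -2.12 in the controls. Cd8a was well above background on 3 of 4 NEKO arrays, so the size of its difference is less certain. Within NEKO kidneys Cd8a was 1.24 higher in males than in females (adjusted p = 0.234 by limma), the same direction as Cd3d, Cd3g and Gzmb. Cd4, Cd79a and Ncr1 were well above background in no kidney. The part of these leukocyte markers in the levels of Trem2, Tyrobp and Lyz2 was not tested.

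Monocyte markers, with 7 of 8 tested, had a median difference of 0.33, with 0.02 in females and 0.92 in males. At an unadjusted p under 0.05 by limma, 3 of these markers were higher and 1 lower (7.37% and 10.6% of all genes and transcripts). Their sum ranged from 53 to 63.1 in controls and from 63.9 to 80.8 in NEKO kidneys, without overlap, and Ly6c2 made up 90.3% to 93.5% of it. Without Ly6c2 the sum was 3.75 to 5.16 in controls, 4.41 to 4.59 in NEKO females and 5.69 to 6.26 in NEKO males. Ly6c2 and Plac8, those with the brightest probes, differed by 0.26 (adjusted p = 0.27 by limma) and 0.04 (adjusted p = 0.911). The largest values of the list were -2.56 for Vcan (adjusted p = 0.0736), 1.4 for F13a1 (adjusted p = 0.25), 1.07 for Fn1 (adjusted p = 0.176) and 1.06 for Chil3 (adjusted p = 0.338), by limma. Vcan was well above background on 0 of 4 NEKO arrays, so the size of its difference is not known. F13a1 was well above background on 3 of 4 control arrays.

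Dendritic cell markers, with 5 of 8 tested, had a median of -0.22, with -0.61 for Batf3 (adjusted p = 0.223 by limma) and -0.36 for Itgae (adjusted p = 0.174), and their sum ranged from 1.12 to 1.43 in controls and from 0.867 to 1.08 in NEKO kidneys. Without Batf3 it was 0.713 to 0.82 in controls, 0.659 to 0.695 in NEKO females and 0.656 to 0.698 in NEKO males. Tubular injury genes had a median of 0.56 over 11 genes, with -0.03 in females and 1.1 in males. At an unadjusted p under 0.05 by limma, 4 were higher and 2 lower (7.37% and 10.6% of all genes and transcripts). The 4 higher genes were Sox9 (1.65, adjusted p = 0.144), Krt20 (1.37, adjusted p = 0.202), Lcn2 (0.73, adjusted p = 0.212) and Vim (0.66, adjusted p = 0.204). The 2 lower genes were Clu (-0.85, adjusted p = 0.129) and Cdkn1a (-0.74, adjusted p = 0.243). The brightest probes of that list were those for Clu and for Anxa2, which differed by 0.09 (adjusted p = 0.757). Cd44, an adhesion receptor of leukocytes and injured tubules, was called higher in NEKO males than in NEKO females (1.49, adjusted p = 0.0187), all by limma. Nephron genes had a median of -0.22 over 13 genes, with Umod at -0.27 (adjusted p = 0.297) and Lrp2 at 0.02 (adjusted p = 0.909), and Atp6v1b1, a proton-pump subunit of intercalated cells, was called lower in NEKO males than in NEKO females (-1.08, adjusted p = 0.0261), where 0.857% of all genes and transcripts were.

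Nrf2 target genes, by contrast with the macrophage lists, had a median difference of 1.3 over 17 genes. Of these, 15 were higher at an unadjusted p under 0.05 by limma, where 7.37% of all genes and transcripts were. The glutathione peroxidase Gpx2 (5.4, SE 0.46, adjusted p = 0.0106) and the thioredoxin reductase Txnrd1 (1.3, SE 0.17, adjusted p = 0.0486) were called higher by limma. Their median was 0.67 in females and 1.62 in males, and Gpx2 (adjusted p = 0.00915), Cbr3 (adjusted p = 0.0225) and Pgd (adjusted p = 0.038) were called higher in NEKO males than in NEKO females. The order of the sexes in this list was that seen for Trem2, and whether the Trem2 level followed Nrf2 activity within these kidneys was not tested.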

How the data were processed

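Kidney RNA was labelled with Cy3 and hybridised to 1-colour Agilent arrays. The deposited scanner files held processed signal intensity from Feature Extraction 10.7.3.1, background-subtracted and not normalised between arrays. The authors' deposited value table held log2 values: 100% of its 328632 values lay within 0.01 of log2 processed signal less the 75th percentile, centred on the median of each probe, and column medians ran from -0.038 to 0.076. It served as an alternative.

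Control spots and outlier flags were left out, and log2 intensity was taken relative to the 75th percentile of each array. Accessions named 26690 of 41174 probes through RefSeq on GRCm38.p6. A probe was kept if well above background on 4 or more arrays, and the brightest kept probe stood for a gene. limma 3.58.1 in R 4.3.3 fitted genotype with sex as a term, or the 4 combinations of sex and genotype for sex differences and the interaction, with Benjamini-Hochberg adjustment over all 19593 genes and transcripts. The code was tested on simulated data. With 4 arrays a group, the number of arrays limits precision. The labels give 1 kidney sample per mouse.

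The members and gene lists were chosen with earlier results of these data known. Named were the members, Keap1, called list genes, the 4 largest differences in each pathway and resident macrophage list, the 5 genes most like Trem2 and the 2 genes with the brightest probes in each marker list of other cells. Ctsd, Cd81, Csf1r, Cd8a, S100a8, Mmp9, Vcan, F13a1, Fn1, Chil3, Sox9, Krt20, Lcn2, Vim, Cdkn1a and genes listed as not above background were named after their values were seen. Alternatives covered background correction (normexp, on median spot signals), scaling, the filter, probe choice, the fit and each kidney left out.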

Additional observations from a re-analysis of the deposited data

Results flagged for a closer look

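In 1 of 20 groups of 4 kidneys examined for each probe of the members and each genotype, 1 kidney stood far from the others, and chance alone gives about 1 in 20. It was NEKO replicate 6, a male, on the dimmer Gpnmb probe, at -5.43 against -7.52 for the nearest and -7.73 for the farthest of the other 3 NEKO kidneys. The gap made up 0.906 of the range of the group. The probe was not well above background on that array, and the other Gpnmb probe read -7.09 in the same kidney against -7.3 to -7.1 in the other 3 NEKO kidneys.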

How the results depend on the processing

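The paper used littermates as controls, but the labels do not say which mice shared a litter, so no paired analysis was possible. The replicate numbers in the labels run from 1 to 8 across both genotypes and do not give pairs. Counts of calls depended strongly on the fit. For NEKO against control, 19 genes and transcripts were higher and 25 lower in the limma fit reported. The counts were 68 and 114 with normexp background correction, 8 and 12 where all 8 arrays had to detect a probe, 40 and 53 with a trended and robust variance, and 35 and 63 with array weights. The methods' t-test gave 0 and 1 after adjustment and 943 and 1269 at an unadjusted p under 0.05. Without a sex term 16 were lower. A model with an interaction, averaged over the sexes and added after the data were seen, gave 247 and 268. Leaving out 1 kidney gave 9 to 24 higher and 8 to 25 lower.

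Of the pathway and macrophage lists 0 genes were called in the main setting and 0 with any 1 kidney left out. With normexp 2 were called (Atp6v0d2 and Pla2g7), with the methods' unadjusted test 3 (Abcg1, Lgmn and Pla2g7), and in the averaged model 5.

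The interaction count was 3. It was 22 with normexp, 0 with quantile normalization, 1 without a filter on dim probes, 5 with detection on all 8 arrays, 0 with the mean of the kept probes, 12 with a trended and robust variance, and 0 to 5 with 1 kidney left out. The count for males against females was 310 in NEKO kidneys. It was 148 without the filter, 471 with a trended and robust variance, 150 with array weights, and 55 to 187 with 1 kidney left out. In control kidneys it was 10, and it was 30 with normexp, 3 with detection on all 8 arrays, 59 with a trended and robust variance, and 6 to 17 with 1 kidney left out. The cause of these changes was not tested.

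The members' differences moved by less than 1 SD between kidneys in all 21 alternatives. Several alternatives could not move a difference in this balanced design and are no check of it. Among these were the fit without a sex term, slide as a block, the trended variance, the methods' t-test and the averaged model. The differences ranged from 2.09 to 3.24 for Trem2, 0.05 to 0.58 for Tyrobp, 0.91 to 1.81 for Lyz2, 0.32 to 0.53 for Lgals3, 0.25 to 0.75 for Apoe and -0.21 to 0 for Cd9. Spp1 ranged from -0.2 to 0.13, so it had no stable sign. The higher Trem2 level in NEKO males was also lost without the filter on dim probes (adjusted p = 0.076 by limma) and with array weights (adjusted p = 0.0635). The interaction for Trem2 was called in 0 of 18 settings, with adjusted p between 0.0573 and 0.286. Signal over background limited what could be said of Gpnmb and of the dimmer Trem2 probe in controls.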
